A study of Mus musculus with 2 samples.

Results

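AP-1 is a transcription factor assembled from pairs of Fos, Jun and ATF proteins, and 7 genes that encode such subunits (Fos, Fosb, Fosl2, Jun, Junb, Jund and Atf3) were followed through single-nucleus RNA-seq of the mouse heart. They were taken by their symbols from the 32589 genes in the count matrices, and all 7 were found. The members had been chosen after the ratios between these same libraries were known, so that every difference between the libraries given here is a description and not a test. The control group consisted of mice injected intraperitoneally with PBS. The PD-1 inhibitor group received an anti-mouse PD-1 antibody at 5 mg/kg on days 1 and 14 of a cycle of 28 days. All were male C57BL/6 mice, 8 weeks old at the start, and no transgene or deletion was named for either group. Each group was measured as 1 library, the number of hearts in a library was not given in the sources used here, and a difference between the libraries therefore cannot be told apart from a difference between hearts or preparations.

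In the AP-1 dimer, Jun proteins can pair with one another or with Fos proteins, whereas Fos proteins need a Jun partner, and the pair binds DNA through the basic region next to its leucine zipper. Fos, Fosb, Junb, Jun and Atf3 are classical immediate early genes, which are transcribed within minutes of a stimulus such as a growth factor, stretch or tissue handling, from promoters that respond to MAP kinase and calcium signals, and whose RNAs are short-lived. Fosl2 tends to be induced later, and Jund is known for steadier expression in many cell types. In the heart AP-1 subunits are best known from pressure overload, ischemia and the endothelial response to flow.

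Because Fos, Fosb and Junb were lower together in ECs of the PD-1 inhibitor library and Jun much less so, the DNA upstream of these 4 genes is shown, as the 150 bases before the start of the RefSeq transcript on GRCm38.p6, written 5′ to 3′ on the strand of the gene. The stretches lie at chr12:85473740-85473889 (plus strand), chr7:19310046-19310195 (minus strand), chr8:84978749-84978898 (minus strand) and chr4:95052223-95052372 (minus strand). Capitals mark the TATA box letters TATAAA, the CCAAT box, the GC box GGGCGG and, added after the sequences had been seen, the shorter core TGACG of the CRE site, on either strand.
Fos: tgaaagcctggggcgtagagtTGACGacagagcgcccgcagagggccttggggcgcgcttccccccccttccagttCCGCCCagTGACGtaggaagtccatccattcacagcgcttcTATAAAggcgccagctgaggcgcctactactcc
Fosb: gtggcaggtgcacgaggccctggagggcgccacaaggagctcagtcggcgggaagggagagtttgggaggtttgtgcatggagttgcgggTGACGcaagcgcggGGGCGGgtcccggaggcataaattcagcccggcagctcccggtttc
Junb: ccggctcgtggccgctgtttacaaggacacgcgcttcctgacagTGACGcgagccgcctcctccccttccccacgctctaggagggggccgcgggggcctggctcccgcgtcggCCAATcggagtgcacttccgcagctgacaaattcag
Jun: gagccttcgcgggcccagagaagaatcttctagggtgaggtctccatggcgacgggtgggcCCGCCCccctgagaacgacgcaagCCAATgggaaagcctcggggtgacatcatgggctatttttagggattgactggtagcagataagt

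All 7 members had a RefSeq window, which reached from 250 bases before to 50 bases after the start, among the 32851 windows of all genes. The AP-1 site TGACTCA was in 0 of the 7 windows and in 5.20% of all windows, and the related CRE site TGACGTCA was in 0 of the 7 and in 1.79% of all. Neither was the CArG box, the binding motif of serum response factor, which was in 1.63% of all windows. The shorter TGACG, which is contained in TGACGTCA, was in 4 of the 7 windows (Fos, Fosb, Junb and Atf3) and in 20.8% of all windows. It was added after the sequences and the ratios had been seen, so its spread over the members is a description only. Atf3, which holds it, had a log2 ratio of PD-1 inhibitor over control of -0.27 in ECs. TATAAA was in 2 of the 7 and in 13.6% of all. In Fos it began 33 bases before the start, and in Junb it began at the RefSeq start itself, which lies 30 bases before the start in GENCODE. CCAAT was in 3 of the 7 (Jun, Junb and Atf3) and in 37.4% of all windows, and GGGCGG was in 5 of the 7 (all but Junb and Jund) and in 35.7% of all. For Jund the RefSeq start lay 1210 bases upstream of the GENCODE start, and it lay 671 bases downstream of it for Fosl2 and 34706 bases downstream for Atf3, so that the windows of these genes need not be the promoters in use. A match of letters is a description of the window and not a site of binding. Sites more than 250 bases before the start, and variants of these letters, were not searched for. A count of 0 therefore does not mean that a gene lacks such a site.

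The matrices held 10197 barcodes with 13177525 unique molecular identifiers (UMIs, each standing for 1 captured RNA molecule) for control and 7967 with 10875248 for PD-1 inhibitor. After removal of nuclei rich in mitochondrial RNA and of doublets, 9522 and 7644 nuclei remained, with a median of 1012 and 1055 UMIs, and 47 barcodes occurred in both libraries. The nuclei formed 23 clusters, of which 22 were named from marker genes, and the names stand for cells like those types. Endothelial cells (ECs) made up 2805 control and 2506 PD-1 inhibitor nuclei, fibroblasts 2466 and 1967, cardiomyocytes 1282 and 1089, MPs (macrophage-like cells, the study's abbreviation) 1259 and 884, mural cells 593 and 423, and mesothelial cells 484 and 462. T cells (237 and 192) and B cells (175 and 80) carried few UMIs of the members. Adipocytes (154 and 16) and glial cells (35 and 12) are left out of the values by cell type below. The adipocyte cluster does enter the counts over clusters. In ECs mitochondrial RNA was 1.49% and 1.74% of UMIs, and the nuclear RNA Malat1 was 4.21% and 4.07%. Levels are UMIs per 1000000 UMIs of the cell type (CPM). Pairs of values stand in the order control and PD-1 inhibitor, and a log2 ratio divides the second by the first after 0.5 UMI is added to both. Intervals in brackets are exact 95% intervals for counting error alone and do not include the spread between hearts.

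**Figure D1:**
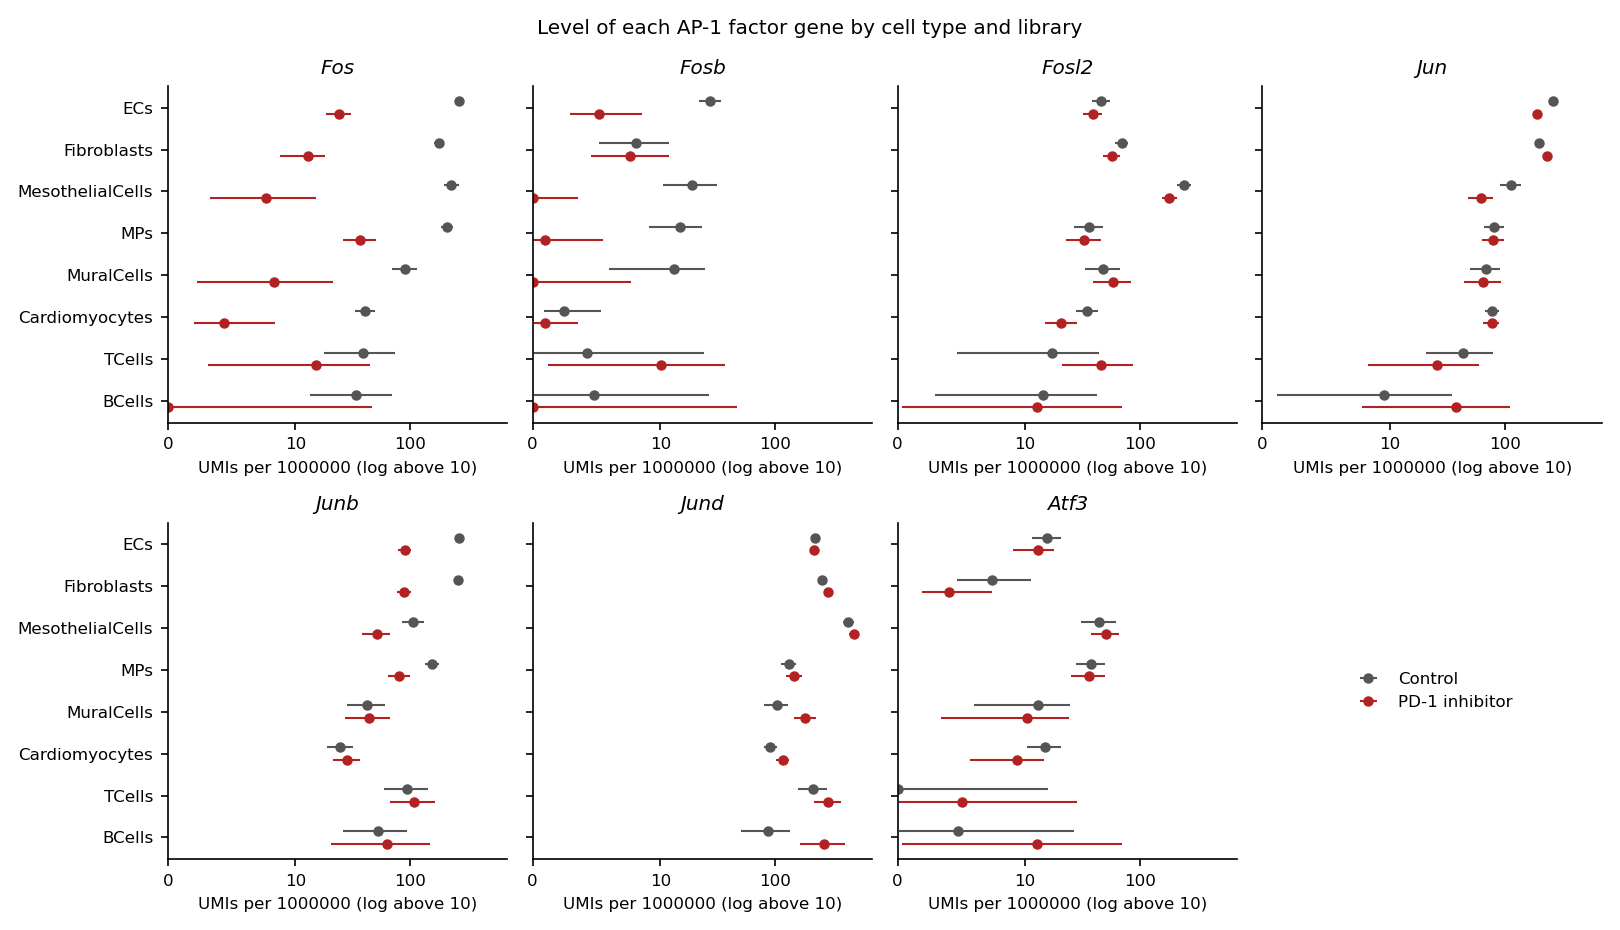
Level of each AP-1 factor gene (UMIs per 1000000, linear to 10 and logarithmic above) in 8 cell types, for the control library (gray) and the PD-1 inhibitor library (red), with exact 95% Poisson intervals as bars. The points of Fos lie apart in ECs (265 and 23.9) and in fibroblasts (176 and 12.9), whereas those of Jund lie close together in ECs (221 and 217).

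Fos, at chr12:85473890-85477273 on the plus strand (ENSMUSG00000021250), encodes the founding Fos subunit and is among the fastest immediate early genes. ECs of the control library held 785 Fos UMIs and those of the PD-1 inhibitor library 69, or 265 CPM [247 to 284] and 23.9 CPM [18.6 to 30.3], a level 11-fold lower. The log2 ratio of -3.46 [-3.85 to -3.11] was the lowest among 10692 genes that reached 50 UMIs in this cell type. Fibroblasts had 525 and 32 UMIs, or 176 and 12.9 CPM, with a log2 ratio of -3.75. Mesothelial cells, which line the outer surface of the heart, had 181 and 8 UMIs, or 228 and 7.71 CPM. Their log2 ratio of -4.80 [-6.12 to -3.87] was the furthest from 0 of any cell type. The interval overlapped those of fibroblasts, mural cells and cardiomyocytes, and the value ranged from -5.22 to -3.73 under other settings. In the control library 5 mesothelial nuclei held 35.4% of the Fos UMIs of that type, with 22 in 1 nucleus. MPs had 279 and 37 UMIs, or 209 and 36.7 CPM, with the log2 ratio nearest to 0 (-2.49). Mural cells (62 and 4 UMIs) and cardiomyocytes (99 and 9 UMIs) had log2 ratios of -3.27 and -3.13. In the control library 6 mural nuclei held 69.4% of the Fos UMIs of that type, with 19 in 1 nucleus. In control cardiomyocytes 13 nuclei held 53.5%. The counting intervals do not allow for UMIs gathered in few nuclei. Fos was thus lower in all 6 cell types in which it had at least 50 UMIs, and in each the interval lay below 0. In the control library the levels fell in the order ECs, mesothelial cells, MPs, fibroblasts, mural cells (89.8 CPM), cardiomyocytes (40.7), T cells (38.5) and B cells (33.4), and the only neighbors in that order whose intervals did not overlap were fibroblasts and mural cells, and mural cells and cardiomyocytes. In the PD-1 inhibitor library MPs came first and B cells had 0 UMIs of Fos, which allows up to 37.8 CPM (3 UMIs), and every pair of neighbors overlapped.

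The Fos UMIs of both libraries sat in few nuclei. In control ECs 9.34% of nuclei had a Fos UMI [8.29 to 10.5], with 3.00 UMIs per such nucleus and up to 30 in 1 nucleus, and the 29 nuclei with the most Fos held 39.0% of the UMIs. In PD-1 inhibitor ECs 1.80% of nuclei had a Fos UMI [1.31 to 2.40], with up to 9 in 1 nucleus. The 26 nuclei with the most Fos held 72.5% of its 69 UMIs there. After every nucleus had been thinned to 500 UMIs the shares were 6.42% and 0.68%. Since free RNA gives UMIs to nuclei that do not express a gene, these shares are to be read beside those of types with a low share, namely T cells in the control library (2.11%, median depth 845 UMIs against 894 in ECs) and cardiomyocytes in the PD-1 inhibitor library (0.64%, median depth 1435 against 948 in ECs), where B cells had 0 of 80 nuclei with a Fos UMI. When ECs were split into 5 bins of UMIs per nucleus, the log2 ratio of Fos lay between -4.78 and -3.03 in the 5 bins.

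Fosb, at chr7:19302696-19310051 on the minus strand, encodes the Fos relative that follows Fos after most stimuli. In ECs it had 81 UMIs in the control and 15 in the PD-1 inhibitor library, or 27.3 CPM [21.7 to 34.0] and 5.20 CPM [2.91 to 8.58], with a log2 ratio of -2.36 [-3.30 to -1.59]. No other cell type reached 50 UMIs. MPs had 20 UMIs and 1 UMI, a log2 ratio of -3.36 [-9.29 to -1.27] that rests on that 1 UMI. Mesothelial cells had 15 and 0 UMIs, and the level was at least 6.52-fold lower in the PD-1 inhibitor library when 3 UMIs are allowed there. The 15 UMIs were in 4 nuclei, with 8 of them in 1 nucleus, and 0 nuclei kept a UMI after thinning to 500 UMIs. Mural cells had 9 and 0 UMIs, at least 2.09-fold lower by the same limit, but 8 of the 9 UMIs were in 1 nucleus. Fibroblasts differed from these types, with 24 and 19 UMIs (log2 ratio -0.07 [-1.02 to 0.86]).

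Fosl2, at chr5:32135801-32157842 on the plus strand, encodes the subunit Fra-2. Its level was highest in mesothelial cells of both libraries, at 243 CPM in control (193 UMIs) and 180 CPM in PD-1 inhibitor (187 UMIs), above fibroblasts at 69.2 and 56.8 CPM, and the intervals of mesothelial cells and of the next type did not overlap in either library. In ECs it had 136 and 112 UMIs, or 45.9 and 38.8 CPM, with a log2 ratio of -0.24 [-0.62 to 0.13]. The log2 ratio was below 0 in 5 of the 6 cell types with at least 50 UMIs. The interval excluded 0 in mesothelial cells (-0.43) and in cardiomyocytes, where 84 and 42 UMIs gave -0.73 [-1.31 to -0.19]. After thinning to 500 UMIs the value in mesothelial cells was 0.07, above 0. Of the 6 types this was also the one in which depth per nucleus differed most, with medians of 1291 and 1724 UMIs. The part of depth in the ratios of mesothelial cells was not tested.

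Jun, at chr4:95049034-95052222 on the minus strand, is a gene of a single exon that encodes the subunit c-Jun. ECs had 772 and 551 UMIs, or 261 CPM [242 to 280] and 191 CPM [175 to 208], with a log2 ratio of -0.45 [-0.61 to -0.29]. Mesothelial cells had 89 and 64 UMIs, for a log2 ratio of -0.86 [-1.35 to -0.38]. Fibroblasts went the other way, with 592 and 577 UMIs, or 199 and 232 CPM, and a log2 ratio of 0.23 [0.06 to 0.39]. In MPs, cardiomyocytes and mural cells the log2 ratio lay between -0.07 and -0.01. Jun is overlapped on the opposite strand by Junos, with 236 and 149 UMIs in all nuclei, and whether the counting used the strand is not given in the sources used here, so that reads of the 2 genes may be mixed.

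Junb, at chr8:84974484-84978718 on the minus strand, encodes a Jun subunit that can oppose c-Jun. ECs had 789 and 257 UMIs, or 266 CPM [248 to 286] and 89.1 CPM [78.6 to 101], with a log2 ratio of -1.58 [-1.79 to -1.37]. Fibroblasts had 770 and 220 UMIs, or 259 and 88.6 CPM, with a log2 ratio of -1.54. The intervals of both types overlapped in each library. Mesothelial cells (84 and 53 UMIs) had a log2 ratio of -1.04 and MPs (206 and 81 UMIs) of -0.93 [-1.33 to -0.56]. In cardiomyocytes 60 and 57 UMIs gave 0.19 [-0.36 to 0.74], in mural cells 29 and 21 UMIs gave 0.07 [-0.83 to 0.92], and in T cells 22 and 21 UMIs gave 0.18. The ratio of Junb therefore ran from well below 0 in ECs to about 0 in these 3 types, whereas that of Fos was below -2 in every type with at least 50 UMIs. In thinned ECs 8.98% and 3.63% of nuclei had a Junb UMI. Junb overlaps Prdx2 on the opposite strand, which had 183 and 243 UMIs in ECs and a log2 ratio of 0.45, opposite in sign to that of Junb.

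Jund, at chr8:70698949-70700616 on the plus strand, encodes the Jun subunit that is expressed in most resting cells. ECs had 655 and 627 UMIs, or 221 CPM [204 to 239] and 217 CPM [201 to 235], with a log2 ratio of -0.02 [-0.18 to 0.14]. Jund was the member whose ratio lay most often above 0, in all cell types with at least 50 UMIs but ECs, and its interval excluded 0 in 3 of the 7. Mural cells had 71 and 88 UMIs, or 103 and 183 CPM, with a log2 ratio of 0.83 [0.36 to 1.30]. Cardiomyocytes (221 and 237 UMIs) had 0.36 [0.09 to 0.63] and fibroblasts (757 and 714 UMIs) had 0.18 [0.03 to 0.33]. Short genes as a whole lay higher in the PD-1 inhibitor library, and Jund spans 1.67 kb. The median log2 ratio of the shortest 20% of genes was 0.22 in ECs, 0.23 in mural cells, 0.26 in cardiomyocytes and 0.20 in fibroblasts, and the part of gene length in the ratio of Jund was not tested. Fos, at 3.38 kb, and Junb, at 4.24 kb, are short as well. Jund was highest in mesothelial cells, at 434 and 485 CPM, apart from the next type in both libraries.

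Atf3, at chr1:191170296-191218039 on the minus strand, encodes a stress-induced ATF subunit and had the fewest UMIs of the members after Fosb (201 and 166 in all nuclei). In ECs it had 46 and 37 UMIs, or 15.5 and 12.8 CPM, with a log2 ratio of -0.27 [-0.94 to 0.38]. The log2 ratio was -0.06 in MPs (50 and 36 UMIs), 0.18 in mesothelial cells (35 and 52 UMIs) and -0.64 in cardiomyocytes (36 and 19 UMIs), and each of these intervals held 0. Mesothelial cells and MPs had the highest levels in both libraries, at 44.0 and 37.4 CPM in control, and their intervals overlapped.

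**Figure D2:**
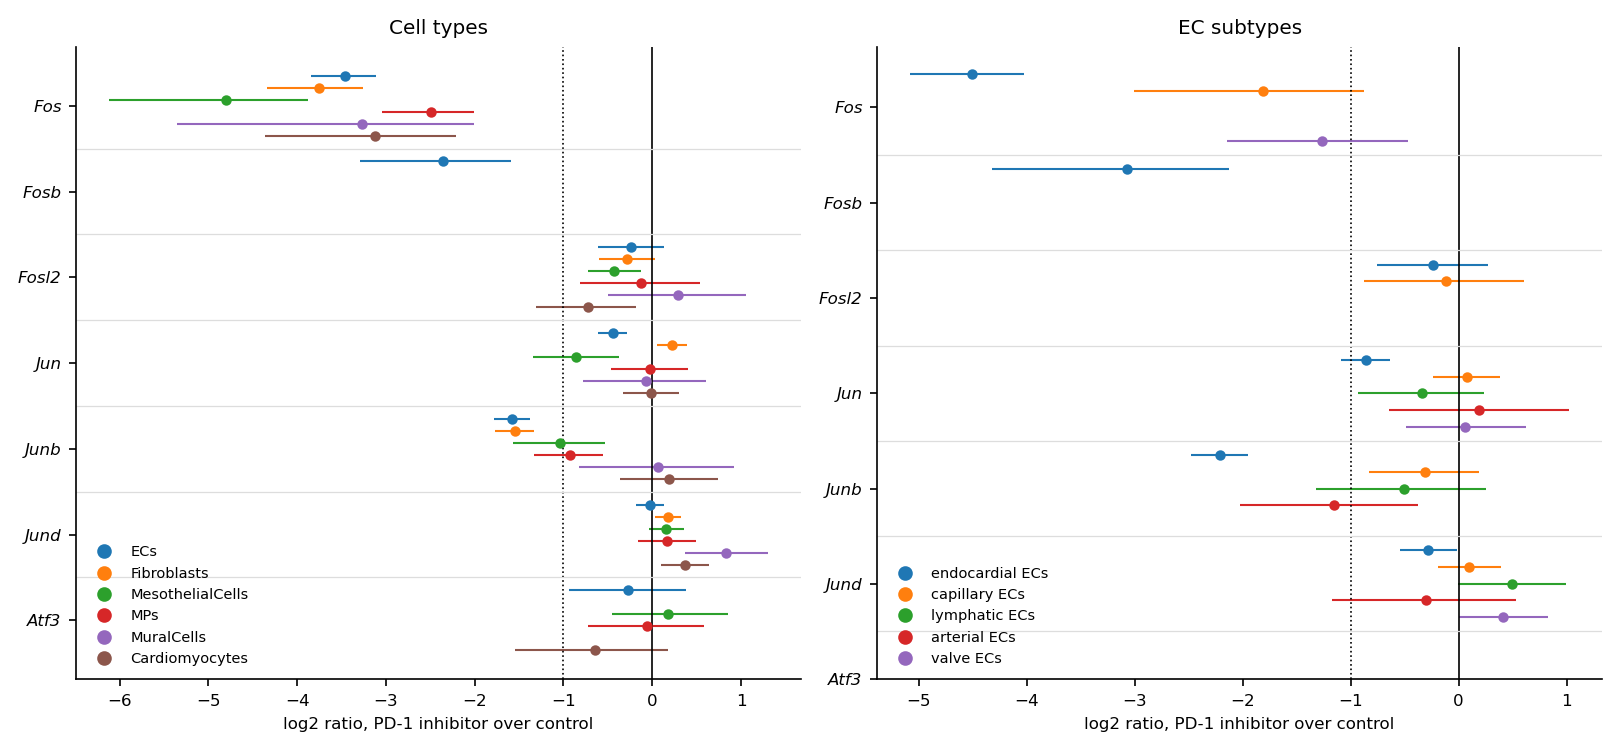
Log2 ratio of PD-1 inhibitor over control (x axis) for each AP-1 factor gene in 6 cell types (left) and in 5 EC subtypes (right), where a gene had at least 50 UMIs in both libraries together, with exact 95% counting intervals; the dotted line is at -1. Fos lies left of the dotted line in every group shown, Junb crosses from -1.58 in ECs to 0.19 in cardiomyocytes, and Jund lies at or right of 0 in the cell types but for ECs (-0.02).

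Counted over the 7 genes, 3 (Fos, Junb and Fosb) were at least 2-fold lower in ECs, where 0.804% of all genes tested were. All 7 had at least 50 UMIs in ECs, and their median log2 ratio was -0.45, beside 0.01 for all genes. In fibroblasts 2 of the 5 tested members (Fos and Junb) were at least 2-fold lower, beside 0.709% of all genes, and in mesothelial cells 2 of 6 (Fos and Junb), beside 0.987%. In cardiomyocytes 1 of 6, in MPs 1 of 6 and in mural cells 1 of 5 were lower by this measure, in each type Fos, beside 1.07%, 1.14% and 1.36% of all genes. Since the members were chosen on these libraries, nothing can be read from the distance between their share and that of all genes. In T cells 1 member (Jund) reached 50 UMIs and in B cells 0 did, which leaves both types without a count.

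Among the ECs, the endocardial cells that line the chambers (1382 and 1492 nuclei) carried most of the difference in UMIs. Fos had 655 and 33 UMIs there, or 437 CPM [404 to 471] and 18.9 CPM, with a log2 ratio of -4.51 [-5.08 to -4.03]. Junb had 581 and 146 UMIs, or 387 and 83.6 CPM, with a log2 ratio of -2.21, and Fosb had 68 and 9 UMIs, with -3.07. Jun, the c-Jun gene, was lower by less than 2-fold, with 415 and 266 UMIs (log2 ratio -0.86 [-1.09 to -0.64]). In all, 3 of the 6 tested members were at least 2-fold lower in endocardial ECs, beside 0.756% of all genes. Where subtypes were drawn with at least 500 genes per nucleus, the endocardial log2 ratio was -2.36 for Fos, -1.40 for Junb and -1.57 for Fosb, and at a Leiden resolution of 2 that of Fos was -2.97, so that the size depends on how the subtypes are drawn.

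Capillary ECs (977 and 687 nuclei) had much less Fos in the control library, with 52 and 10 UMIs, or 56.2 CPM [42.0 to 73.7] and 15.4 CPM, and a log2 ratio of -1.81 [-3.01 to -0.88]. The level of Fos in control capillary ECs was thus far below that of control endocardial ECs, while the levels in the PD-1 inhibitor library (15.4 and 18.9 CPM) had overlapping intervals. Junb had 94 and 53 UMIs in capillary ECs, with a log2 ratio of -0.31 [-0.83 to 0.19], and Jun had 210 and 155, with 0.07. Only Fos, 1 of 5 tested members, was at least 2-fold lower in capillary ECs, beside 1.26% of all genes. These intervals for the log2 ratio of Fos, Junb and Jun did not overlap those of endocardial ECs at the settings used here. The endocardial Fos value of -2.36 under the minimum of 500 genes lies inside the capillary interval, so that the separation for Fos depends on how the subtypes are drawn. No test of this difference can be made with 1 library per group.

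In the smaller subtypes the counts were low. In arterial ECs (97 and 75 nuclei) Junb had 47 and 19 UMIs, which gave a log2 ratio of -1.15 [-2.02 to -0.38], and it was the 1 of 3 tested members at least 2-fold lower, beside 2.78% of all genes. In lymphatic ECs (235 and 158 nuclei) 0 of 3 tested members were, beside 2.68% of all genes, and Fos had only 23 and 4 UMIs there. In valve ECs (114 and 94 nuclei) Fos had 42 and 19 UMIs, which gave a log2 ratio of -1.26 [-2.15 to -0.47], the 1 of 3 tested members at least 2-fold lower, beside 1.35% of all genes. This subtype was the least firm, since its Fos log2 ratio was 0.27 at a Leiden resolution of 0.5 and -4.34 with at least 500 genes per nucleus. Valve ECs had the most Jund of the subtypes, with 86 and 126 UMIs, or 524 and 698 CPM, and a log2 ratio of 0.41 [0.01 to 0.83], whereas Jund in endocardial ECs had -0.28 [-0.55 to -0.02]. Both values changed sign with at least 500 genes per nucleus (-0.064 in valve and 0.20 in endocardial ECs) and with a mitochondrial limit of 5% (-0.22 and 0.10).

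Within the other cell types, too, single clusters held much of the Fos. Fibroblasts led by Inmt (440 and 357 nuclei) had 360 and 8 UMIs of Fos, or 646 and 17.2 CPM, with a log2 ratio of -5.15 [-6.45 to -4.24], and 312 and 26 UMIs of Junb, with -3.30. The larger fibroblast cluster led by Rgs17 (1249 and 819 nuclei) had 90 and 5 UMIs of Fos, or 64.7 and 5.79 CPM, and the cluster led by Cilp had 50 and 12, or 57.2 and 12.3 CPM. The control level of Fos was therefore many times higher in the Inmt-led nuclei than in the other large fibroblast clusters, and the level in the PD-1 inhibitor library was low in each of them. Mural cells led by the smooth muscle genes Cnn1 and Myh11 (104 and 55 nuclei) had 52 and 2 UMIs of Fos, while the cluster led by Lin7a and Vtn (489 and 368 nuclei) had 10 and 2. Among cardiomyocytes the small cluster led by the atrial genes Mybphl, Sln and Nppa (41 and 47 nuclei) had 34 and 3 UMIs of Fos, or 563 and 35.4 CPM.

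Over the clusters with at least 20 UMIs of a gene and a UMI in both libraries, the log2 ratio of Fos was below 0 in 16 of 16, from -5.49 in the Nrg1-led endocardial cluster to -0.73 [-2.09 to 0.42] in the MP cluster led by the dendritic cell genes Cd209a and Flt3. That of Junb was below 0 in 14 of 18, that of Jun in 10 of 18, and that of Jund in 5 of 21. The adipocyte cluster is counted for Jun (58 and 6 UMIs) and for Jund, where 19 and 12 UMIs gave the highest value, 2.05 [0.85 to 3.14]. It had 36 and 0 UMIs of Junb and is therefore not among the 18. For Jun the Inmt-led and Cilp-led fibroblasts stood on opposite sides of 0, with 123 and 57 UMIs (-0.84 [-1.33 to -0.38]) in the first and 245 and 377 UMIs (0.46 [0.22 to 0.70]) in the second, and the fibroblast value of 0.23 pools them. Clusters were drawn from the same counts, so that these values are a description of how the genes were spread and not a test.

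**Figure D3:**
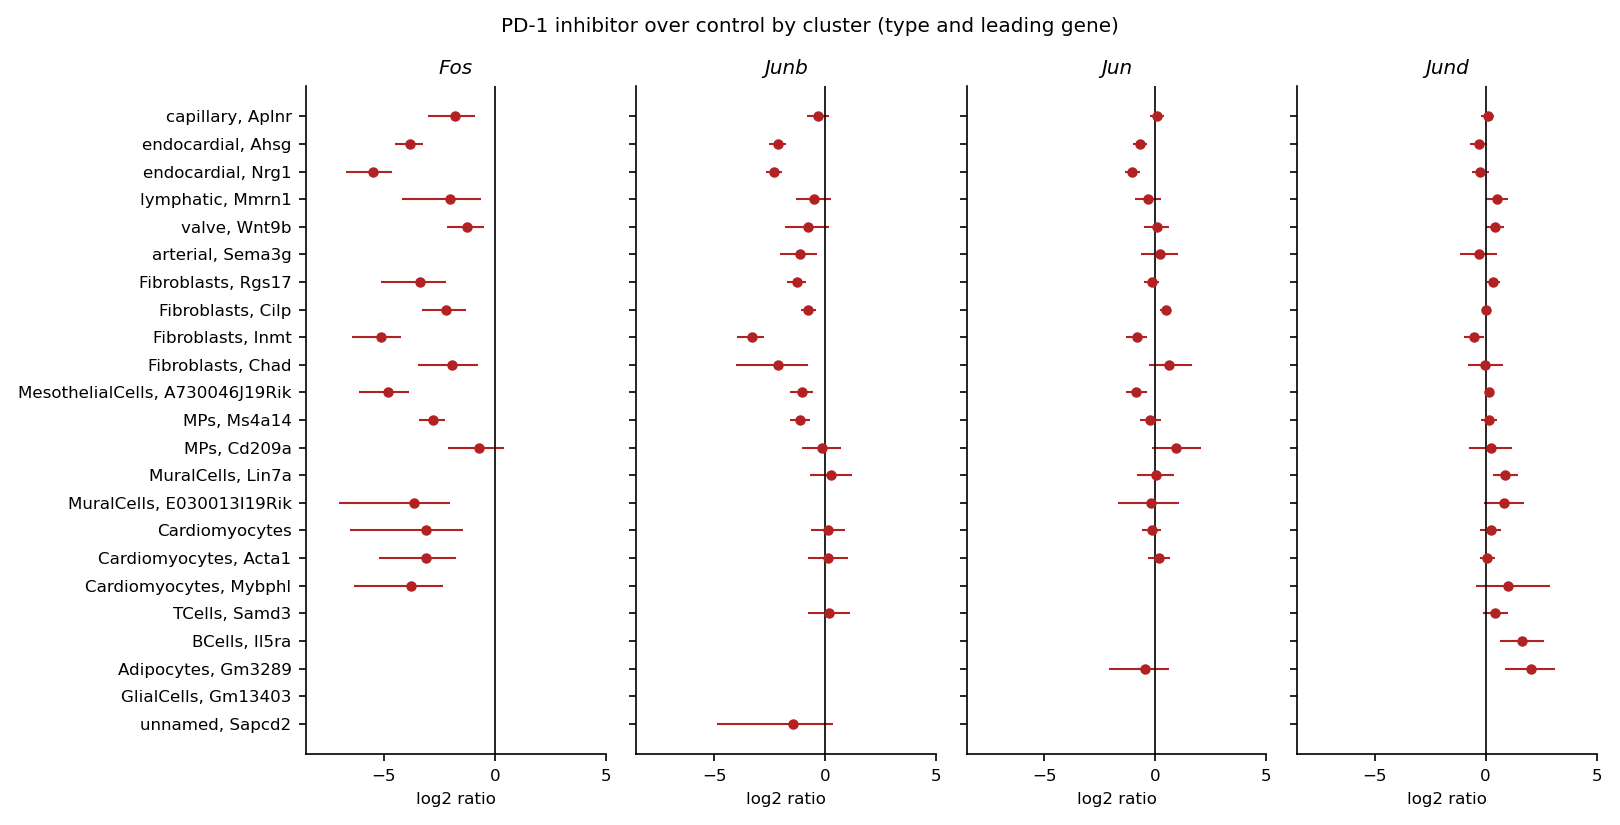
Log2 ratio of PD-1 inhibitor over control (x axis) of Fos, Junb, Jun and Jund in each cluster, named by its type or EC subtype and its leading gene (the largest cardiomyocyte cluster by its type alone), where the gene had at least 20 UMIs and a UMI in both libraries, with exact 95% counting intervals. Fos is below 0 in all 16 clusters shown for it, and Jund in 5 of 21.

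The members were also looked at together in single nuclei, after thinning each nucleus to 500 UMIs. At least 1 of the 7 genes had a UMI in 30.5% of control ECs and in 19.4% of PD-1 inhibitor ECs, and at least 2 had one in 6.67% (187 nuclei) and 2.15% (54 nuclei). In endocardial ECs at least 2 were seen in 9.04% and 1.54% of nuclei, and in capillary ECs in 2.97% and 2.77%. The intervals of the endocardial shares lay apart, and those of the capillary shares overlapped. On fewer nuclei, arterial ECs had 9.28% and 5.33%, valve ECs 11.4% and 6.38%, and lymphatic ECs 4.68% and 1.27%, each with overlapping intervals. Fibroblasts had 5.92% and 3.86%, mesothelial cells 5.37% and 4.76%, MPs 3.42% and 2.04%, and cardiomyocytes 0.94% and 0.64%. Among these types only the fibroblast intervals lay apart. Mural cells had the higher share in the PD-1 inhibitor library, 1.01% and 1.42%, on 6 nuclei in each.

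**Figure D4:**
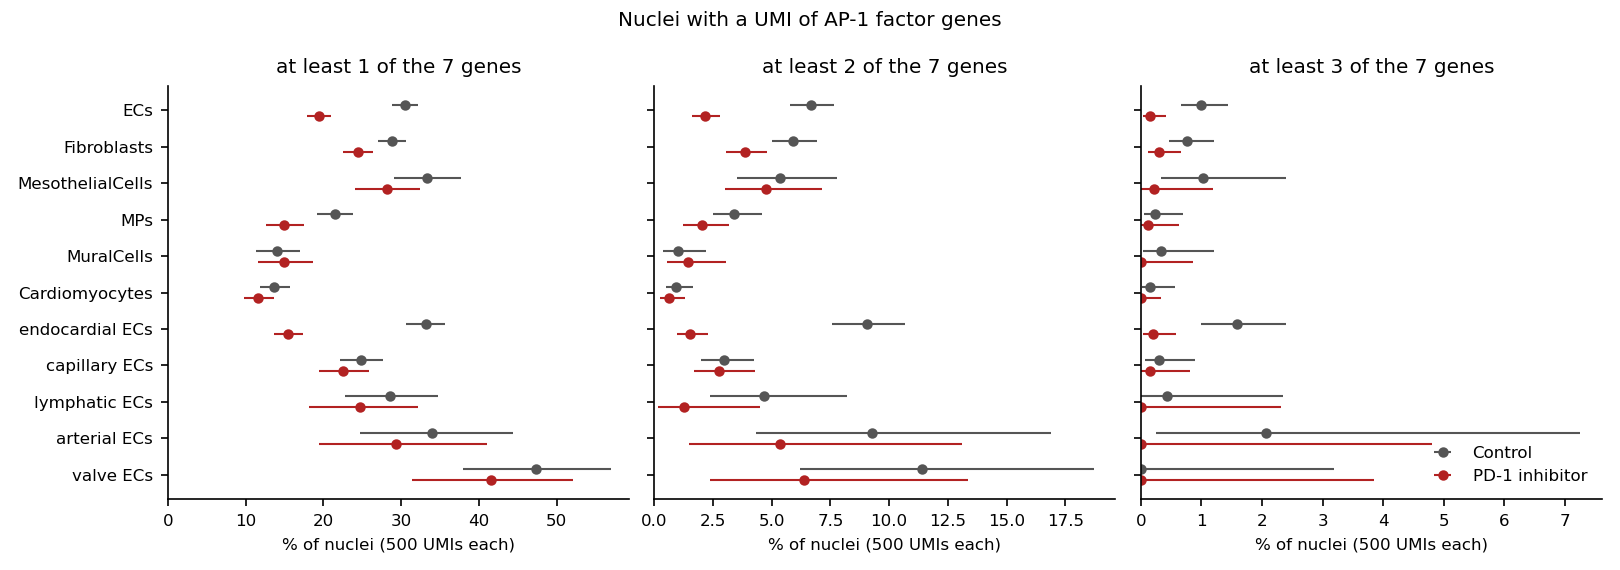
Percent of nuclei (x axis, each nucleus thinned to 500 UMIs) with a UMI of at least 1, 2 or 3 of the 7 AP-1 factor genes, by cell type and EC subtype, for the control (gray) and PD-1 inhibitor (red) libraries, with exact 95% Clopper-Pearson intervals. At least 2 genes were seen in 9.04% of control and 1.54% of PD-1 inhibitor endocardial ECs.

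The members were also paired in these sparse counts. In thinned control ECs, Junb had a UMI in 39 of the 180 nuclei with Fos (21.7%) and in 8.11% of the 2625 without. In control fibroblasts Junb had a UMI in 28.7% of the 129 nuclei with Fos and in 8.13% of those without. Jun was in 16.1% [11.1 to 22.3] of control ECs with Fos and in 9.18% [8.10 to 10.4] of those without. Jund was in 13.9% of control ECs with Fos and in 8.99% of those without, and in control fibroblasts in 9.30% and 9.58%. Fos had a UMI in 12 of the 33 control ECs with Fosb (36.4%) and in 6.06% of the other ECs. Few nuclei had Fos in the PD-1 inhibitor library, and Junb had a UMI in 1 of the 17 such ECs and in 3 of the 14 such fibroblasts. All clusters of a cell type were pooled in these shares.

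The other genes of the pathway were read from lists written from general knowledge with earlier results of these data known. Their counts in ECs are to be read beside all 10692 genes tested there, of which 0.804% were at least 2-fold lower and 49.3% were below 0, with a median log2 ratio of 0.01. Of 20 tested other immediate early genes 6 were at least 2-fold lower in ECs and 17 were below 0, with a median log2 ratio of -0.31. Ccn1, a matricellular protein gene, had 1563 and 267 UMIs, which gave a log2 ratio of -2.51, Egr1, a zinc finger factor, had 676 and 124 and -2.40, and Egr3 had 64 and 15 and -2.02. The flow-responsive factors Klf2 (3179 and 2756 UMIs, -0.17) and Klf4 (1414 and 1164 UMIs, -0.24) lay nearer to 0. Egr1 was lower in fibroblasts too, with 1025 and 199 UMIs, which gave a log2 ratio of -2.10, and in cardiomyocytes, with 47 and 13 UMIs and -1.55.

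Of 15 tested feedback regulators, which switch MAP kinases off or destabilize early RNAs, 2 were at least 2-fold lower in ECs and 10 were below 0, and the median log2 ratio was -0.33. These were Dusp1, a MAP kinase phosphatase gene, with 1417 and 591 UMIs and -1.22, and Zfp36, whose protein speeds the decay of AU-rich RNAs, with 403 and 151 UMIs and -1.37. Dusp8, another phosphatase gene, had 152 and 101 UMIs and -0.55. Spred1, an inhibitor of Ras signaling (357 and 291 UMIs, -0.26), and Zfp36l1, a relative of Zfp36 (979 and 899 UMIs, -0.08), lay nearer to 0. Of 20 tested kinases and factors upstream of AP-1, 0 were 2-fold lower, although 16 were below 0 and the median was -0.20. Map3k5 (353 and 182 UMIs, -0.91), Mef2c (1390 and 888 UMIs, -0.61) and Mapk8, the gene of the kinase JNK1 (296 and 191 UMIs, -0.59), were furthest from 0. The factors Mef2a (1857 and 1454 UMIs, -0.31) and Elk3 (1634 and 1451 UMIs, -0.13), which had the most UMIs of this list along with Mef2c, lay nearer to it. The longest 20% of genes had a median of -0.17 in ECs, and the part of gene length in the ratio of this list was not tested.

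Of 15 tested other bZIP genes of the AP-1 family, 0 were 2-fold lower in ECs and 10 were below 0, and the median log2 ratio was -0.14. Crem, a cAMP-responsive factor, had 214 and 144 UMIs and -0.53, Maff had 56 and 36 and -0.59, and Maf had 357 and 414 and 0.25. Batf2 had 51 and 33 UMIs and -0.58, and the abundant Atf2 (457 and 389, -0.19) and Creb1 (414 and 367, -0.13) lay nearer to 0. Of 16 transcripts known as AP-1 targets, 2 were at least 2-fold lower and 7 were below 0. The 2 were Ptgs2, the gene of the prostaglandin synthase COX-2 (207 and 78 UMIs, -1.36), and Ccl2, a chemokine gene (161 and 71 UMIs, -1.14). The median was 0.10, and the value furthest above 0 among the targets named here was that of Timp1, a metalloproteinase inhibitor gene, with 21 and 36 UMIs and 0.80. The growth factor gene Tgfb1 had 392 and 421 UMIs and 0.14, Fn1 had 992 and 1041 UMIs, which gave a log2 ratio of 0.11, and Ccnd1 had 289 and 309 and 0.14.

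**Figure D5:**
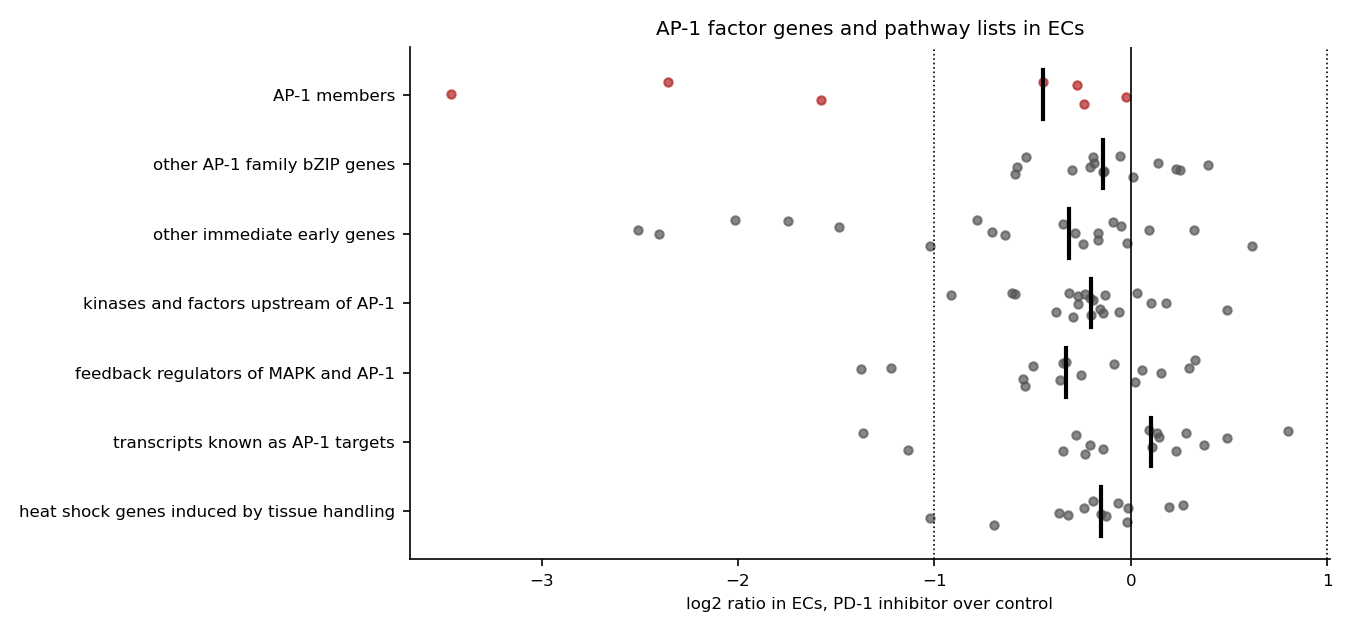
Log2 ratio in ECs of PD-1 inhibitor over control (x axis) of the genes with at least 50 UMIs in each list, 1 point a gene, with the list's median as a black bar and dotted lines at -1 and 1. The AP-1 members (red) have a median of -0.45 and the AP-1 targets of 0.10.

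Heat shock genes, which rise with tissue handling, had a median log2 ratio of -0.15 in ECs and summed levels of 1630 and 1522 CPM. Of 13 tested, 11 were below 0, beside 49.3% of all genes tested in ECs. Of the heat shock genes Hspa1b was at least 2-fold lower (36 and 17 UMIs, -1.02), beside 0.804% of all genes, and Hspa1a had 67 and 40 UMIs and -0.70. The chaperone genes Hsp90ab1 (1717 and 1656 UMIs, -0.01), Hspa8 (885 and 775 UMIs, -0.15) and Dnaja1 (457 and 345 UMIs, -0.37) lay nearer to 0. Markers of red blood cells summed to 295 and 250 CPM in ECs, 163 and 136 in fibroblasts, 231 and 146 in MPs, 538 and 609 in cardiomyocytes, and 165 and 189 in mural cells. In mesothelial cells they summed to 277 and 132 CPM, and 3 of 3 tested genes were at least 2-fold lower there, beside 0.987% of all genes. Over these 6 types their level was thus lower in 4 and higher in cardiomyocytes and mural cells of the PD-1 inhibitor library. T cells (342 and 107 CPM) and B cells (100 and 139 CPM), where 0 of these genes reached 50 UMIs, are not among the 6. Markers of neutrophils summed to 6.41 and 5.89 CPM in ECs, with 0 of 7 genes reaching 50 UMIs. The part of handling or blood content in the ratios of Fos and Junb was not tested.

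The genes most like a member were sought among 11481 genes by the Pearson correlation of log2(CPM + 1) over 16 points, which are 8 cell types in 2 libraries and so share libraries and depth. For Fos these were Gm12940 (0.91), Asb7 (0.81) and Ucp1 (0.81), and for Junb Btbd7 (0.83), Acot9 (0.83) and Gdpd3 (0.82). For Jun they were Upp2 (0.90), Ube2g2 (0.89) and Calu (0.89), for Jund C77080 (0.91), S100a11 (0.89) and Sec62 (0.88), and for Fosl2 Ssx2ip, Smim1 and Ei24 (0.92 each). Ucp1 is an adipocyte marker used here, and adipocytes (154 and 16 nuclei) are not among the 8 types. The part of free adipocyte RNA in the correlation of Ucp1 with Fos was not tested. Among the members themselves Fos and Fosb were most alike (0.81), followed by Fosl2 and Jund (0.63) and Fosb and Junb (0.62), and Fos and Jund were unlike (-0.11).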

How the data were processed

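The authors isolated nuclei from mouse hearts, made 1 library per group with the GEXSCOPE single nucleus kit and deposited the raw counts of UMIs of each gene in each nucleus as whole numbers. Per the submitters' processing notes the genome build was GRCm38 (mm10); the aligner, the counting software and its strand setting are not given in the sources used here. No deposited barcode had fewer than 500 UMIs, and the total was 13177525 UMIs in the control and 10875248 in the PD-1 inhibitor library.

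Nuclei entered with 200 or more genes and a mitochondrial share of no more than 20%, less the doublets (592 and 308) that Scrublet found library by library (scanpy 1.11.5). Counts were scaled to 10000 per nucleus and logged, and Leiden clustering (resolution 1) used 15 neighbours on 30 principal components of 2000 variable genes. A cluster was named when at least 3 markers of a type were detected, but not if its leading genes held more markers of another type, if Mki67 or Top2a was seen in 50% or more of the nuclei, or if 50% or more of another type's markers were detected too. The Mki67 or Top2a rule left 1 cluster without a name. UMIs were then summed by cell type and library. Genes entered counts from 50 UMIs over the 2 libraries, and a log2 ratio at or below -1 was counted as at least 2-fold lower. Intervals were exact (Poisson for levels, Clopper-Pearson for shares, conditional binomial for ratios; scipy 1.17.1) at 95%. With 1 library per group no test was made and no p-value is given. The sums and intervals were tested on simulated EC counts drawn from a Poisson distribution, which the intervals themselves assume. That test does not cover UMIs gathered in few nuclei.

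Gene spans came from GENCODE vM21 on GRCm38, which held 32445 of the 32589 gene identifiers, and promoter windows from RefSeq on GRCm38.p6. The members and the gene lists were chosen with earlier results of these data known. Named are all 7 members, in each list the 3 genes with the most UMIs and the 3 with the log2 ratio furthest from 0 in ECs, and the 3 genes most like each member with at least 500 UMIs. Genes named only to identify a cluster or as overlapping neighbours were chosen after their values were seen.

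Alternatives were a minimum of 500 genes, a mitochondrial limit of 5%, retained doublets, resolution 0.5 or 2, totals that omit mitochondrial and ribosomal protein genes, centring on the median, a mean over nuclei, thinning to 500 UMIs, the same mix of depths and of EC clusters, 1.5-fold in place of 2-fold, and 20 UMIs in place of 50. Clustering without the early response genes and leaving out the 47 barcodes found in both libraries were added after the data were seen.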

Additional observations from a re-analysis of the deposited data

Results flagged for a closer look

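For Jun, cell types lay on opposite sides of 0 with intervals that excluded 0. The log2 ratio of PD-1 inhibitor over control was -0.45 in ECs and -0.86 in mesothelial cells, and 0.23 in fibroblasts. For Jund the same held among EC subtypes, with -0.28 in endocardial ECs and 0.41 in valve ECs. Both Jund values changed sign with at least 500 genes per nucleus (0.20 in endocardial and -0.064 in valve ECs) and with a mitochondrial limit of 5% (0.10 and -0.22). With 1 library per group neither difference was tested.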

How the results depend on the processing

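The log2 ratio of Fos in ECs ranged from -3.96 to -3.37 over 13 alternatives, that of Fosb from -3.14 to -2.27 and that of Junb from -1.65 to -1.56, and in fibroblasts Fos ranged from -3.90 to -3.51 and Junb from -1.75 to -1.49 over 12. Counts of members at least 2-fold lower that moved by over 1.5 times were as follows. Thinning to 500 UMIs, which leaves fewer genes past 50 UMIs, gave 0 in cardiomyocytes, mural cells, capillary, arterial and valve ECs and 1 in mesothelial cells. At least 500 genes gave 0 in mural cells and capillary ECs, 1 in mesothelial cells and 3 in valve ECs, and at most 5% mitochondrial UMIs gave 3 in valve ECs. Resolution 0.5 gave 0 in mural cells and valve ECs, and resolution 2 gave 2 in MPs and in arterial ECs. Doublets kept gave 2 in MPs, 1.5-fold gave 3 in cardiomyocytes and 2 in MPs, and 20 UMIs gave 2 in MPs and 1 in lymphatic ECs. Clustering without early response genes gave 2 in arterial ECs. Counts in ECs, fibroblasts and endocardial ECs did not move by over 1.5 times.

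Of 676 log2 ratios under alternatives, 642 stayed within the counting interval of the value reported, 28 left it, and 6 reversed. Reversed here means a change of sign in a value whose counting interval excluded 0. Values whose interval held 0 also changed sign under some alternatives and are not among the 6. Jund in ECs, for example, ranged from -0.33 to 0.08 and Jun in valve ECs from -0.84 to 0.78. The reversed ones were Fosl2 in mesothelial cells after thinning (0.067), Jund in endocardial ECs with at least 500 genes (0.20) and with the mitochondrial limit of 5% (0.10), Jund in valve ECs under the same settings (-0.064 and -0.22) and Fos in valve ECs at resolution 0.5 (0.27). In mural cells Fos was -1.60 at resolution 0.5 and -1.83 after thinning. The cause of these moves was not tested. Depth limits Fosb, Atf3 and the small subtypes, with fewer than 50 UMIs in most groups. No paired analysis was possible because each group is 1 library and the labels carry no replicate numbers.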
